A study of Mus musculus with 12 samples.

Results

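NRF2 target genes and the enzymes of glutathione metabolism were followed across 12 RNA sequencing libraries of mouse paw cultures labelled as synovial fibroblasts, the lining cells of joints. The set held 40 genes, found by symbol among the 55413 genes of the deposited table. Of these 40 genes, 39 passed the filter on low values (a mean of at least 3 on the log2 scale over the 12 libraries), as did 16459 genes in all. Gpx2, a glutathione peroxidase of the gut lining, did not pass, with values between -0.6 and 0.75, and was not tested.

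The paws of BALB/c mice, an inbred strain, were digested with collagenase, and for each library cells pooled over 2 to 3 paws were grown for 5 passages. Monosodium urate (MSU), the crystal of gout, was injected into left paws on day 0 and day 9 (primed) and into right paws on day 9 alone (non-primed), so that side and priming cannot be told apart, and RNA was taken on day 18. The 4 groups of 3 libraries were non-primed paws of mice injected with vehicle, primed paws of mice injected with vehicle, primed paws of mice given a daily peritoneal injection of I-BET151 (20 mg/kg), begun 1 day ahead of the first crystals (in vivo treated), and primed paw cells that had 1 µM I-BET151 in the medium for the last 24 h (in vitro treated). I-BET151 inhibits the BET bromodomain proteins, which bind acetylated histones at active genes. All groups received MSU on day 9, and no library came from paws without crystals. The labels do not say whether the mice behind the in vitro treated cells had vehicle injections, nor whether libraries came from separate animals, so that p-values measure the spread between pooled cultures, which may be technical.

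NRF2, encoded by Nfe2l2, is the transcription factor that switches on genes for detoxification and antioxidant defence. In resting cells KEAP1 holds it in the cytoplasm and passes it on for degradation, and oxidants or electrophiles that modify KEAP1 let NRF2 build up and bind antioxidant response elements together with small MAF proteins. Its targets import cystine and build glutathione, the main small thiol of the cell, and keep thioredoxin, peroxiredoxins and glutathione reduced at the expense of NADPH. Other targets break down haem, store iron in ferritin and couple glutathione to reactive compounds. In fibroblasts and in the inflammatory cells around crystals, these enzymes handle peroxides and superoxide made by mitochondria and NADPH oxidases.

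Promoter windows of 300 bases were taken from RefSeq (250 before to 50 after a gene's start, build GRCm38.p6). They were searched for the core of the antioxidant response element, TGACNNNGC on either strand, because the element is where NRF2 binds. It was present in 11 of the 34 genes of the set that the promoter table holds (32.4%), and in 14% of the 27025 genes in that table. By window, these shares were 24.4% of 45 and 12.4% of 32851. The 8 matches whose surrounding stretch lay wholly before the start are printed 5′ to 3′ along the gene's own strand, with the match in capitals (a match on the opposite strand reads GCNNNGTCA). They are letter matches and not measured binding sites. The set was chosen to hold NRF2 targets, and whether the element had a part in the differences between these libraries was not tested.
Nfe2l2, which encodes NRF2 itself (chr2:75704879-75704913, minus strand): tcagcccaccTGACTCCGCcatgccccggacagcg
Gclm, a subunit of the first enzyme of glutathione synthesis (chr3:122245407-122245447, plus strand): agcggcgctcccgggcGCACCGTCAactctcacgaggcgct
Gsta3, an alpha-class glutathione transferase (chr1:21240448-21240488, plus strand): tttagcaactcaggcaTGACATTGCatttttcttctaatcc
Mgst1, a membrane-bound glutathione transferase (chr6:138140455-138140495, plus strand): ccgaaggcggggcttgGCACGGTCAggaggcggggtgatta
Txnrd1, thioredoxin reductase of the cytosol (chr10:82859098-82859138, plus strand): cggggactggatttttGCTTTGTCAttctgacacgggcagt
Prdx1, a peroxiredoxin (chr4:116685450-116685490, plus strand): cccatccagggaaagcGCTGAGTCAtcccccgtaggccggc
G6pdx, glucose-6-phosphate dehydrogenase (chrX:74428913-74428953, minus strand): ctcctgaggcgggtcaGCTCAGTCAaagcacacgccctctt
Sod1, the copper-zinc superoxide dismutase (chr16:90220690-90220730, plus strand): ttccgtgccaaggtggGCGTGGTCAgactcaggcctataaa
The Prdx1 match overlaps TGANTCA, the motif bound by AP-1 factors, and the other printed matches do not. As reported below, Nfe2l2, Gclm, Gsta3, Mgst1, Txnrd1 and Prdx1 were higher in primed than in non-primed libraries (Prdx1 not with quantile normalization). G6pdx and Sod1 were not called in that comparison. Me1, Pgd and Srxn1, whose matches are not printed, were higher too. So were 30 of the 39 tested genes of the whole set, and genes with and without a match were not compared.

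Values are the authors' regularized log2 expression (rlog), on which a difference of 1 is a 2-fold difference and differences of weakly expressed genes are shrunk. Depth is not kept on this scale and is unknown. Differences are given with standard errors from a limma model of all 12 libraries, and a gene is called, and said to rise or fall, where the Benjamini-Hochberg adjusted p over the 16459 genes was under 0.05.

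A split between libraries ran across these groups. The mean of 15 melanocyte markers lay between 12.9 and 14.44 in the 3 non-primed libraries and at 12.91 and 12.9 in in vivo libraries 2 and 3, but between 7.11 and 7.6 in the primed vehicle libraries, at 6.23 in in vivo library 1 and between 6.35 and 6.67 in the in vitro treated libraries. No melanocyte marker was at 0 in any library. Tyrp1, an enzyme of melanin synthesis, ran from 17.44 to 18.62 in the 5 melanocyte-rich libraries and from 3.98 to 6.10 in the other 7. Not every listed marker split so widely: Gpnmb ran from 18.27 to 19.18 in the 5 and from 15.71 to 16.88 in the 7. Ednrb went the other way, from 3.28 to 5.31 in the 5 and from 5.80 to 9.35 in the 7. Col1a1, the main collagen of fibroblasts, ran from 9.00 to 14.26 in the 5 and from 17.59 to 18.79 in the 7, so that the labelled cell type was weakly marked in the 5. Macrophage markers (15 listed) averaged 3.02 to 5.92 in the 5 and 7.41 to 9.38 in the 7. The part of this split in the differences below cannot be told apart from priming, because each non-primed library and no primed vehicle library was melanocyte-rich. For in vivo treatment, the counts and the falls named below are also given in a fit of the 7 libraries low in melanocyte transcripts, a setting chosen after the data were seen, in which in vivo library 1 stands alone and its spread is taken from the primed vehicle and in vitro treated libraries. In bulk RNA, fewer cells of a type and less RNA per cell cannot be told apart.

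The first comparison was between primed and non-primed paws of vehicle-treated mice. It asks what the earlier crystal injection, on day 0, leaves behind in cultured cells. Of the 39 genes, 30 rose in primed libraries and 0 fell, with 9 not called. Over the 16459 genes tested, 28.9% rose and 22.9% fell. The median difference of the set was 1.49, against 0.05 over all genes. The lowest primed library lay above the highest non-primed library for 33 of the 39 genes, as it did for 33.7% of all genes. Each of the 9 roles below held at least 1 gene that rose, and 4 of the 9 genes not called were glutathione transferases. In the same comparison 14 of 15 melanocyte markers fell and 10 of 10 fibroblast markers rose. The remaining melanocyte marker, Ednrb, rose by 3.57.

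**Figure D1:**
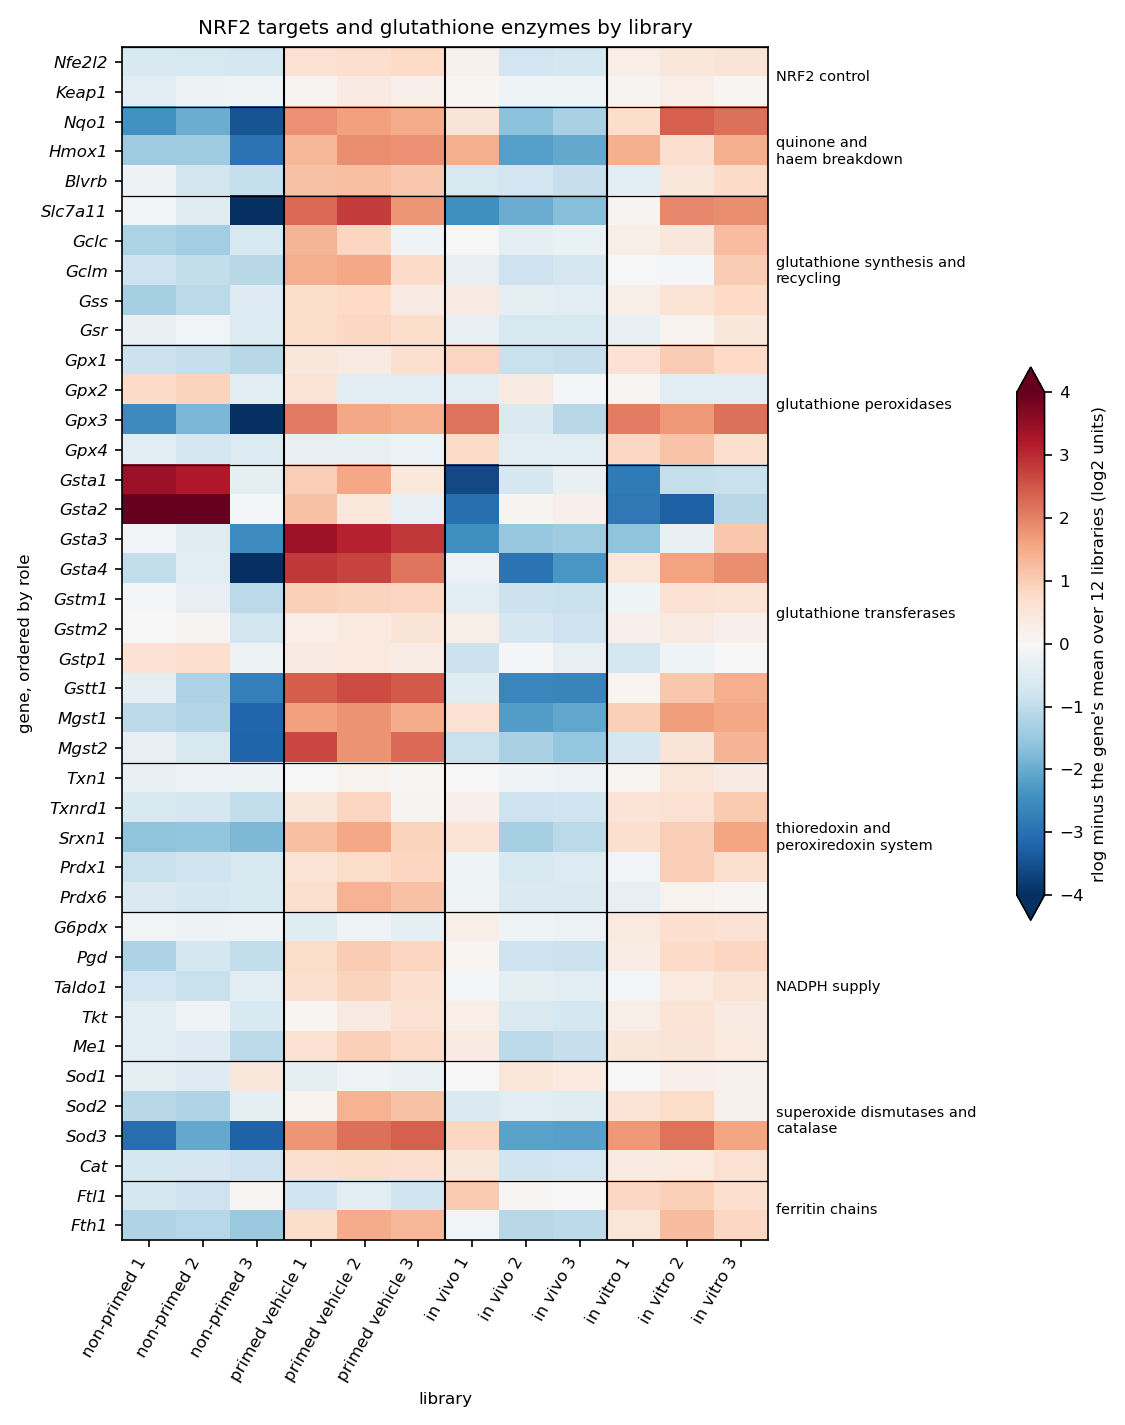
Expression of the 40 genes (rows, by role) in the 12 libraries (columns, by group), as rlog minus the gene's mean over the 12 libraries in log2 units, with the colour scale ending at -4 and 4. The primed vehicle and in vitro treated columns are red over most rows and the non-primed columns and in vivo libraries 2 and 3 are blue, with Gpx2 near white, Gsta1 and Gsta2 highest in non-primed libraries 1 and 2, and Ftl1 highest in in vivo library 1 and the in vitro treated libraries.

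Both genes of NRF2 control were higher in primed libraries. Nfe2l2 was at 13.61, 13.60 and 13.53 in non-primed libraries 1 to 3, 14.83, 14.91 and 15.02 in primed vehicle, 14.39, 13.46 and 13.52 in in vivo treated, and 14.49, 14.67 and 14.73 in in vitro treated libraries. Its non-primed values were close together and lay wholly below the primed ones, with a difference of 1.34 ± 0.21 (limma, adjusted p = 0.00163). Keap1, the inhibitor, rose by less, 0.47 ± 0.12 (limma, adjusted p = 0.01). Its values were 11.61, 11.86 and 11.91 in non-primed and 12.16, 12.38 and 12.25 in primed vehicle libraries, which do not overlap.

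All 3 genes of quinone reduction and haem breakdown rose. Nqo1 (ENSMUSG00000003849, chromosome 8, 107388225 to 107403206, minus strand, GENCODE M21 on GRCm38) encodes the quinone reductase that is the customary readout of NRF2 activity. It was at 11.19, 11.64 and 10.18 in non-primed, 15.46, 15.25 and 15.12 in primed vehicle, 14.13, 11.98 and 12.34 in in vivo treated and 14.33, 16.01 and 15.83 in in vitro treated libraries. The non-primed and primed ranges lie more than 3 log2 units apart, and the difference of the means was 4.27 ± 0.60 (limma, adjusted p = 0.00118). Hmox1 (chromosome 8, 75093621 to 75100589, plus strand), which encodes the inducible haem oxygenase, was at 14.12, 14.11 and 12.58 in non-primed, 16.87, 17.41 and 17.38 in primed vehicle, 16.98, 13.33 and 13.50 in in vivo treated and 16.96, 16.22 and 16.98 in in vitro treated libraries. It rose by 3.62 ± 0.83 (limma, adjusted p = 0.00575), and in in vivo library 1 it was within the primed range. Blvrb, which encodes biliverdin reductase B, rose by 1.79 ± 0.29. Blvra, which encodes the other biliverdin reductase and is outside the set, fell by 0.48 ± 0.17.

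The 5 genes that supply and recycle glutathione all rose. Slc7a11 (chromosome 3, 49892526 to 50443614, minus strand), the cystine importer whose cargo limits glutathione synthesis, was at 12.42, 12.04 and 8.55 in non-primed, 14.80, 15.33 and 14.30 in primed vehicle, 10.07, 10.54 and 10.81 in in vivo treated and 12.62, 14.43 and 14.37 in in vitro treated libraries. Non-primed library 3 was the lowest of the 12, and the 3 in vivo treated libraries lay together at the low end, in vivo library 1 included. The difference between primed and non-primed means was 3.80 ± 0.89 (limma, adjusted p = 0.00603). Gclm, the regulatory subunit of glutamate-cysteine ligase, was at 12.18, 12.03 and 11.91 in non-primed, 14.46, 14.56 and 13.78 in primed vehicle, 12.67, 12.18 and 12.34 in in vivo treated and 12.99, 12.97 and 14.03 in in vitro treated libraries. It rose by 2.22 ± 0.30 (limma, adjusted p = 0.000945), and Gclc, the catalytic subunit, rose by 1.80 ± 0.38. Gss, glutathione synthetase, rose by 1.58 ± 0.27, and Gsr, which reduces oxidized glutathione, by 1.08 ± 0.19.

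Among the 3 glutathione peroxidases tested, which use glutathione to reduce peroxides, Gpx1 and Gpx3 rose and Gpx4 was not called. Gpx3, the secreted form, was at 9.27, 9.98 and 4.69 in non-primed, 13.88, 13.36 and 13.26 in primed vehicle, 13.99, 11.25 and 10.70 in in vivo treated and 13.85, 13.56 and 14.02 in in vitro treated libraries. Its difference, 5.52 ± 1.23, was the largest of the set, and non-primed library 3 stood more than 4 log2 units below the other two. Without that library the difference was 3.87, still called. Gpx1, the main form of the cytosol, was at 12.30, 12.24 and 12.07 in non-primed and 13.63, 13.54 and 13.81 in primed vehicle libraries, a rise of 1.46 ± 0.39. Gpx4, which reduces lipid peroxides in membranes and guards against ferroptosis, differed by 0.26 ± 0.28 (limma, adjusted p = 0.439).

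The 10 glutathione transferases, which couple glutathione to reactive compounds, were the most mixed: 6 rose and 4 were not called. Gsta4, which removes the lipid aldehyde 4-hydroxynonenal, was at 9.15, 9.72 and 5.45 in non-primed and 12.94, 12.82 and 12.28 in primed vehicle libraries, a rise of 4.57 ± 1.03. Gsta3 (chromosome 1, 21240589 to 21265661, plus strand) was at 7.20, 6.83 and 4.78 in non-primed, 10.70, 10.38 and 10.14 in primed vehicle, 4.86, 5.78 and 5.89 in in vivo treated and 5.69, 7.01 and 8.38 in in vitro treated libraries. Its primed values stood above the other 9 libraries by more than 1 log2 unit, and the rise was 4.13 ± 0.74 (limma, adjusted p = 0.00234). Gstt1 (3.94 ± 0.71), Mgst2 (3.63 ± 0.74), Mgst1 (3.43 ± 0.74) and Gstm1 (1.39 ± 0.27) rose as well.
The 4 transferases not called were Gstm2 at 0.60 ± 0.28, Gstp1 at 0.01 ± 0.27, Gsta1 at -1.10 ± 1.12 and Gsta2 at -2.47 ± 1.26. Gsta2 was at 9.64, 9.59 and 5.15 in non-primed and 6.42, 5.66 and 4.90 in primed vehicle libraries, so that 2 of the 3 non-primed libraries were above the primed ones. Without non-primed library 3 its difference was -3.96 and was called (limma, adjusted p = 0.0124). Gsta1 and Gsta2 transcripts are 97.2% identical over 870 aligned bases, and Gstp1 and Gstp2 95.7% over 786, so that reads may have been split between these copies and the values of Gsta1, Gsta2 and Gstp1 are uncertain.

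Of the 5 thioredoxin and peroxiredoxin genes, 4 rose. Srxn1, sulfiredoxin, which restores over-oxidized peroxiredoxins, was at 12.69, 12.72 and 12.51 in non-primed, 15.52, 15.84 and 15.20 in primed vehicle, 14.86, 12.99 and 13.23 in in vivo treated and 14.96, 15.28 and 15.87 in in vitro treated libraries. It rose by 2.88 ± 0.43 (limma, adjusted p = 0.00135), with the 3 non-primed values close together and below the other 9 libraries. Prdx6 (chromosome 1, 161240112 to 161251219, minus strand), a peroxiredoxin that acts on phospholipid peroxides with glutathione, was at 13.70, 13.58 and 13.64 in non-primed, 14.90, 15.66 and 15.44 in primed vehicle, 14.13, 13.70 and 13.70 in in vivo treated and 13.95, 14.41 and 14.35 in in vitro treated libraries. It rose by 1.69 ± 0.21 (limma, adjusted p = 0.000731), and its primed values lay above the other 9 libraries. Prdx1 rose by 1.49 ± 0.26, but was at 0.64 and not called with quantile normalization, which moved the median of all genes in this comparison from 0.05 to -0.24. Txnrd1 rose by 1.23 ± 0.30, whereas Txn1, thioredoxin itself, was at 0.31 ± 0.12 and was not called (limma, adjusted p = 0.0525).

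NADPH, the electron donor of both the glutathione and the thioredoxin cycle, is supplied by the pentose phosphate pathway and malic enzyme. Of 5 genes of that pathway and malic enzyme, not all of which form NADPH themselves, 4 rose. These were Pgd by 1.85 ± 0.26, Me1 by 1.45 ± 0.32, Taldo1 by 1.44 ± 0.18 and Tkt by 0.76 ± 0.25. Tkt was not called without non-primed library 3 (0.65) or with quantile normalization (0.44). G6pdx, the enzyme at the entry of the pathway, was not called. Its values were 13.60, 13.51 and 13.59 in non-primed, 13.24, 13.56 and 13.35 in primed vehicle, 13.98, 13.54 and 13.50 in in vivo treated and 14.12, 14.38 and 14.29 in in vitro treated libraries. The 3 in vitro treated libraries were the highest, and non-primed and primed values overlapped (-0.19 ± 0.14, limma, adjusted p = 0.298).

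Superoxide dismutases turn superoxide into hydrogen peroxide, and catalase breaks hydrogen peroxide down. Sod3, the extracellular dismutase, was at 10.60, 11.61 and 10.41 in non-primed, 15.40, 15.84 and 16.05 in primed vehicle, 14.48, 11.51 and 11.46 in in vivo treated and 15.39, 15.81 and 15.21 in in vitro treated libraries. It rose by 4.89 ± 0.69 (limma, adjusted p = 0.00116), and among in vivo treated libraries it was high only in library 1, as Col1a1 was. Sod2 of the mitochondria rose by 1.80 ± 0.32 and Cat, catalase, by 1.42 ± 0.27. Sod1 of the cytosol was at -0.12 ± 0.23 and not called.

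The pair of ferritin chains, which together form the iron storage shell, did not move alike. Fth1, the heavy chain with ferroxidase activity (chromosome 19, 9980598 to 9985098, plus strand), was at 17.21, 17.26 and 16.91 in non-primed, 19.10, 19.88 and 19.74 in primed vehicle, 18.28, 17.29 and 17.34 in in vivo treated and 18.89, 19.68 and 19.24 in in vitro treated libraries. Ftl1, the light chain (chromosome 7, 45457944 to 45459884, minus strand), was at 17.68, 17.54 and 18.41 in non-primed, 17.56, 17.93 and 17.58 in primed vehicle, 19.41, 18.42 and 18.37 in in vivo treated and 19.19, 19.31 and 19.04 in in vitro treated libraries. Fth1 rose by 2.45 ± 0.34 in primed libraries (limma, adjusted p = 0.00114), and Ftl1, whose groups overlapped, was at -0.19 ± 0.33 (limma, adjusted p = 0.658). Both ferritin chains have processed copies in the mouse genome, and how reads were shared among them is not given in the sources used here.

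**Figure D2:**
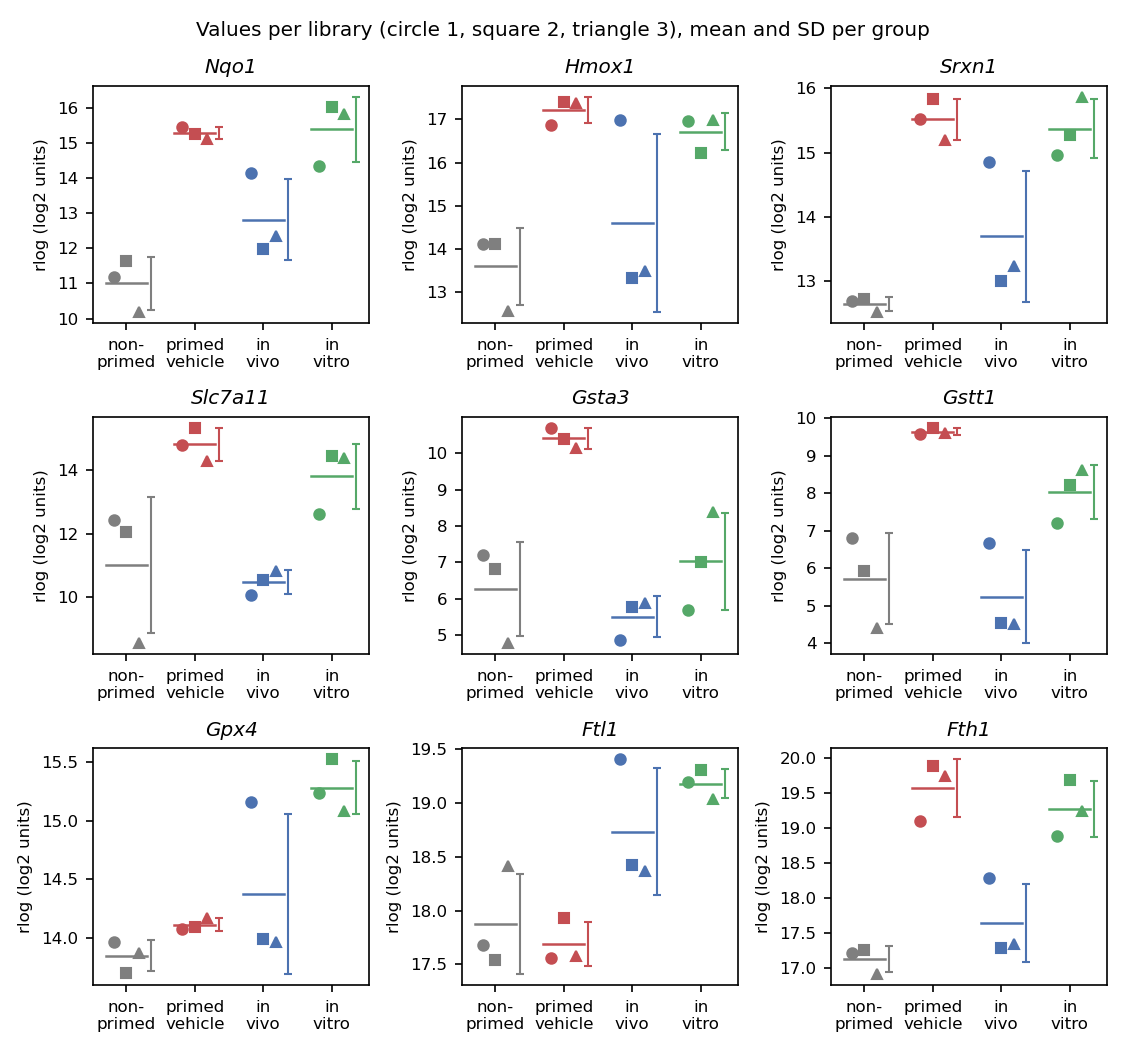
Expression of 9 genes (rlog, log2 units, vertical axis with its own range for each gene) in each library, by group, with circles, squares and triangles for libraries 1, 2 and 3, lines at the group means and bars of 1 SD. The 3 primed vehicle libraries lie above the 3 non-primed libraries for each gene but Ftl1, and in vivo library 1 lies above in vivo libraries 2 and 3 for each gene but Slc7a11 and Gsta3.

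Other genes of the pathway moved in both directions, and their counts are read against the 28.9% of all genes that rose and the 22.9% that fell. Of 9 further NRF2 regulators, 4 rose and 1 fell. Maff, a small MAF partner, rose by 4.69 ± 0.73, and Bach2, a repressor that competes for the same element, fell by 2.42 ± 0.45. Of 23 further NRF2-linked and detoxifying genes, 14 rose and 2 fell, led by Aldh3a1, an aldehyde dehydrogenase, at 6.37 ± 1.18, Ptgr1 at 6.13 ± 1.26 and Abcc3, an export pump for conjugates, at 5.65 ± 0.91. Of 30 further glutathione genes, 14 rose and 5 fell, with Gpx7 of the endoplasmic reticulum at 5.92 ± 1.34, Ggt5 at 3.90 ± 0.84 and Gsto1 at 3.13 ± 0.39. Further thioredoxin and peroxiredoxin genes split 7 higher and 4 lower of 16, with Msrb3 at 3.26 ± 0.66 and Prdx5 at 2.97 ± 0.36. Further pentose phosphate and NADPH genes went mostly the other way, 2 higher and 6 lower of 11: Idh2 fell by 2.85 ± 0.55 and Mthfd2 by 1.88 ± 0.36, and H6pd rose by 1.76 ± 0.44.
Among 11 superoxide-producing oxidase genes, 6 rose and 1 fell. Cybb, the catalytic subunit of the phagocyte NADPH oxidase, rose by 6.51 ± 1.03, Rac2 by 4.96 ± 1.00 and Ncf4 by 4.67 ± 0.73. These are genes of phagocytes, and macrophage markers rose in 11 of 14 cases in the same comparison. Their part in the difference was not tested. Of 11 iron handling genes, 4 rose and 3 fell, with Hp, haptoglobin, at 7.68 ± 1.19, Steap4 at 6.64 ± 1.29 and Hpx, hemopexin, at 3.35 ± 0.54. The counts of the iron handling genes lay near the background over all genes in both directions.

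The second comparison asked how daily I-BET151 given to the mice changed the primed paw cultures. Of the 39 genes, 28 fell, 1 rose and 10 were not called in in vivo treated against primed vehicle libraries. Over all genes 21.8% fell and 17.9% rose. The median of the set was -1.32, against -0.05 over all genes. Every in vivo treated library lay below every primed vehicle library for 26 of the 39 genes, and above for 2, against 26.4% and 22.7% of all genes. This comparison shares its primed vehicle libraries with the first.

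The largest falls were in transferases and cystine import. Gsta3 fell by 4.90 ± 0.74 (limma, adjusted p = 0.00257), and Gstt1 (-4.41 ± 0.71), Gsta4 (-4.39 ± 1.03), Mgst2 (-3.49 ± 0.74) and Mgst1 (-2.88 ± 0.74) fell too. In the 7-library fit these 4 genes were at -2.98, -2.78, -3.12 and -1.05, all called. In all, 8 of the 10 transferases fell. Slc7a11 fell by 4.33 ± 0.89 (limma, adjusted p = 0.00699), and the other glutathione supply genes to fall were Gclm (-1.87 ± 0.30), Gsr (-1.28 ± 0.19) and Gss (-0.77 ± 0.27). In the 7-library fit Gsr was at -1.08 and called, and Gclm, at -1.59, and Gss, at -0.26, were not. Gclc, at -0.92 ± 0.38, was not called.
Further falls were those of Sod3 (-3.28 ± 0.69), Hmox1 (-2.62 ± 0.83), Nqo1 (-2.46 ± 0.60), Fth1 (-1.94 ± 0.34), Blvrb (-1.93 ± 0.29) and Srxn1 (-1.82 ± 0.43). In the 7-library fit Sod3 was at -1.28 and Blvrb at -1.79, both called. For Hmox1 the groups overlapped. Nfe2l2 fell by 1.13 ± 0.21 (limma, adjusted p = 0.00513), and Keap1 was at -0.29 ± 0.12 and not called. None of the 3 glutathione peroxidases was called: Gpx3 was at -1.52 ± 1.23, Gpx1 at -0.81 ± 0.39 and Gpx4 at 0.26 ± 0.28. Ftl1 alone rose, by 1.05 ± 0.33 (limma, adjusted p = 0.0314), a call that was lost when any primed vehicle library, in vivo library 2 or in vivo library 3 was left out (0.98 to 1.23).
A fit of only the 6 libraries compared, which takes its spread from them alone, called 20 of the 39 genes lower and 0 higher, against 13.8% and 10.2% of all genes. The falls not called there were those of Hmox1, Gss, Gstm2, Txnrd1, Srxn1, Tkt, Me1 and Cat, with adjusted p from limma between 0.0531 for Srxn1 and 0.127 for Tkt. In the 7-library fit, where in vivo library 1 stands alone, Me1 was at -0.42, Txnrd1 at -0.26, Gstm2 at -0.17 and Tkt at -0.09.

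In vivo library 1, the one in this group poor in melanocyte transcripts, differed from libraries 2 and 3. Its values lay below all 3 primed vehicle libraries for 27 of the 39 genes, against 35 in each of libraries 2 and 3. Over all genes these shares were 38.5% in library 1, 45.6% in library 2 and 45.3% in library 3. The median of the set relative to the primed mean was -0.81 in library 1, -1.47 in library 2 and -1.42 in library 3. Without library 1, 29 genes fell and 2 rose, against 33.5% and 27% of all genes, whereas without library 2, 17 fell and 0 rose, against 8.91% and 6.18%, and without library 3, 17 fell and 0 rose, against 8.79% and 6.01%. With library 1 as the sole in vivo library in the fit of the remaining libraries, 0 of the 39 genes fell and 1, Gpx4, rose by 1.05 ± 0.18 (limma, adjusted p = 0.0475), against 0.808% of all genes lower and 0.377% higher.
In the fit of the 7 libraries low in melanocyte transcripts, 15 of the 39 genes fell and 3 rose. Over all genes 11.8% fell and 8.68% rose in that fit. The differences of Gsta3 at -5.55 ± 0.88 and Slc7a11 at -4.73 ± 0.72 were called there, each a larger fall than with all libraries. Gsta1, also called there, was at -4.61 ± 0.82, against -2.51 ± 1.12 with all libraries, where it was not called. The Gsta1 value in in vivo library 1 was low, at 2.53, and is uncertain because reads may be shared with Gsta2. In the same 7-library fit, Ftl1 rose by 1.72 ± 0.28, Gpx4 by 1.05 ± 0.18 and G6pdx by 0.60 ± 0.16. Nfe2l2 fell by 0.53 ± 0.14.
Other differences were smaller there and not called, among them Nqo1 at -1.15, Fth1 at -1.29, Srxn1 at -0.66, Hmox1 at -0.24 and Cat at -0.22. By values looked at after the tests, for Slc7a11, Gsta3 and Blvrb the values of in vivo library 1 lay close to those of libraries 2 and 3, and for Hmox1, Cat, Gpx1, Gpx3, Sod3 and Tkt they lay nearer to the primed vehicle libraries. Library 1 had 10 fibroblast markers at a mean of 15.43, against 10.13 and 10.47 in libraries 2 and 3, and 15 macrophage markers at 7.41, against 3.81 and 5.42. What share these cells had in the falls was not tested.

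**Figure D3:**
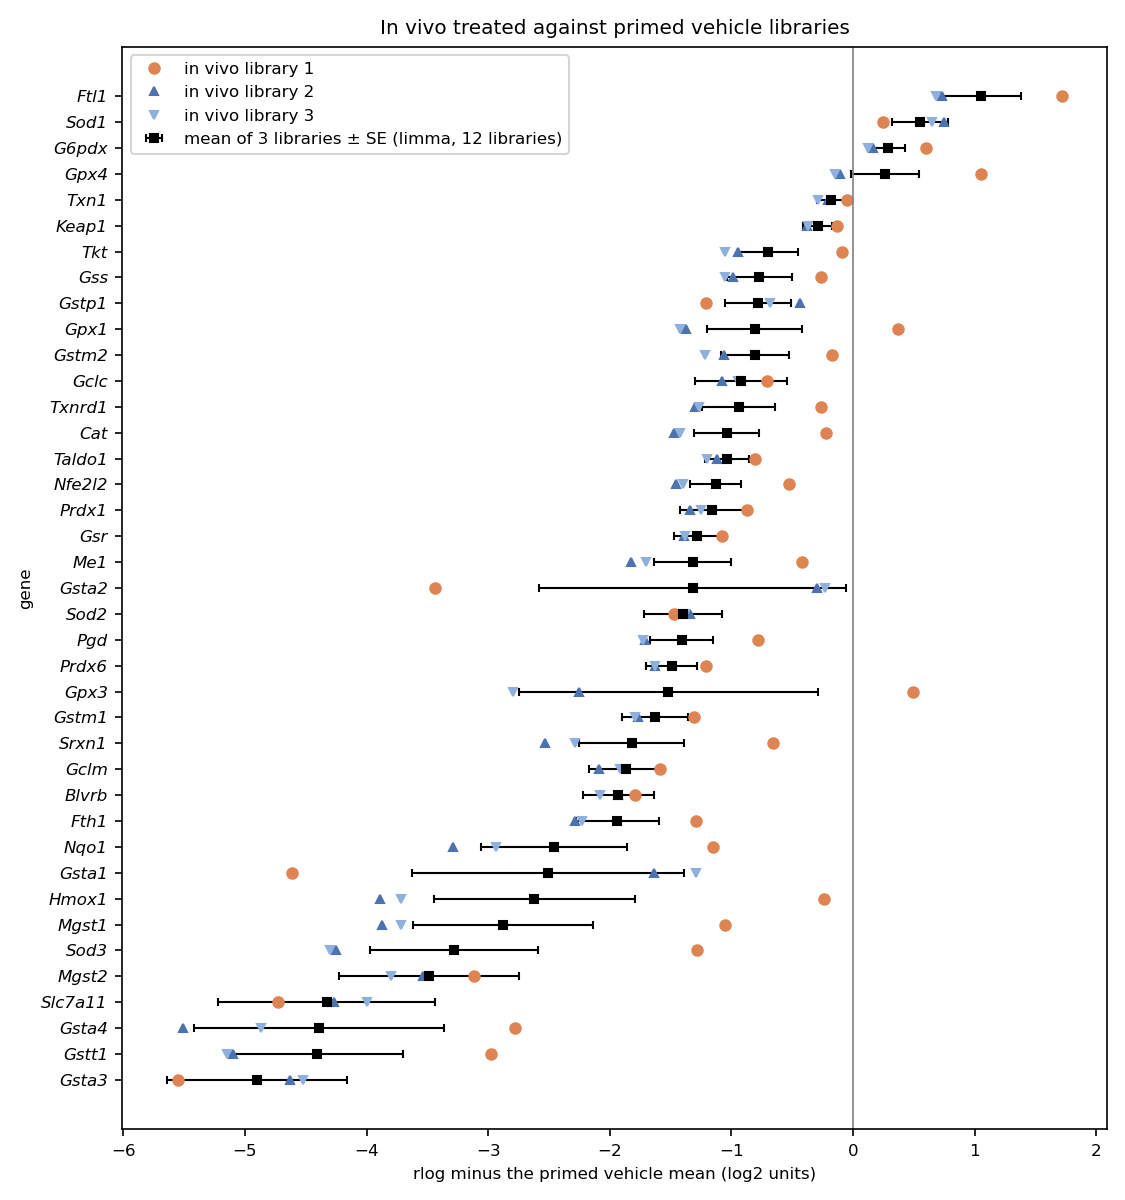
Difference from the primed vehicle mean (log2 units, horizontal axis) for the 39 genes tested (vertical axis, in order of the mean difference), with squares and bars for the mean of the 3 in vivo treated libraries and its standard error (limma, 12 libraries), and coloured points for the single libraries. Slc7a11 and Gsta3 are low in all 3 libraries, whereas Hmox1 and Cat are low in libraries 2 and 3 and at -0.24 and -0.22 in library 1.

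Counts of the further lists in the 7-library fit are read against the lower shares of all genes given above for that fit. With all 12 libraries, the further lists are read against the 21.8% of all genes that fell and the 17.9% that rose. Among them, 12 of 23 further NRF2-linked and detoxifying genes fell and 0 rose, with Aldh3a1 at -5.37 ± 1.18, Abcc3 at -3.13 ± 0.91 and Ephx2 at -3.12 ± 0.93. With the 7 libraries 7 fell and 1 rose, and these 3 genes were at -5.55, -0.89 and -0.62, the last not called. Of 30 further glutathione genes, 13 fell and 4 rose, led by Gpx7 at -4.37 ± 1.34, Ggt5 at -2.72 ± 0.84 and Glrx, glutaredoxin, at -2.43 ± 0.36. The 7-library fit gave 6 falls and 5 rises, with Gpx7 at -0.92, Ggt5 at -0.40, not called, and Glrx at -1.78. Maff fell by 3.07 ± 0.73 and Bach2 rose by 1.56 ± 0.45, among 4 lower and 1 higher of 9 further regulators, and in the 7-library fit they were at -1.49 and 0.77, not called, among 1 lower and 1 higher. Sesn3, a stress-induced sestrin, rose by 2.00 ± 0.27, and Msrb3 and Prdx5 fell by 2.40 ± 0.66 and 2.27 ± 0.36, in a group of 16 further thioredoxin and peroxiredoxin genes with 4 higher and 6 lower. Of the 16 genes, 4 were higher and 3 lower in the 7-library fit, with Sesn3 at 1.83, Msrb3 at -0.39, not called, and Prdx5 at -1.24.
Of 11 further pentose phosphate and NADPH genes, Idh2 rose by 1.75 ± 0.55 and 0 fell. No gene of that list was called in the 7-library fit, where Idh2 was at 0.04. The oxidase genes fell in 8 of 11 cases, with Cybb at -4.81 ± 1.03, Ncf4 at -4.38 ± 0.73 and Rac2 at -4.15 ± 1.00, and macrophage markers fell in 9 of 14. Among the oxidase genes 5 fell in the 7-library fit, with Cybb at -3.49, Ncf4 at -3.20 and Rac2 at -2.12, the last not called. Of 11 iron handling genes, 3 fell, namely Hp by 6.13 ± 1.19, Hpx by 1.58 ± 0.54 and Slc11a2, an iron importer, by 1.17 ± 0.27, and 1 rose. In the 7-library fit 3 fell and 0 rose, with Hp at -5.14, Hpx at -0.54, not called, and Slc11a2 at -1.42.

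The third comparison asked what 24 h of I-BET151 in culture changed in cells of primed paws. No library on either side was melanocyte-rich. Of the 39 genes, 3 rose, 2 fell and 34 were not called. Over all genes 1.76% rose and 2.76% fell. The median of the set was -0.29, against -0.02 over all genes. Groups did not overlap for 4 genes that were higher and 15 that were lower, against 22.7% and 25.7% of all genes.

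The 3 genes that rose were Ftl1, Gpx4 and G6pdx. Ftl1 rose by 1.49 ± 0.33 (limma, adjusted p = 0.0374), and its in vitro treated values lay more than 1 log2 unit above the highest primed vehicle library. Gpx4 (chromosome 10, 80047166 to 80056439, plus strand) was at 13.96, 13.70 and 13.87 in non-primed, 14.07, 14.09 and 14.17 in primed vehicle, 15.16, 13.99 and 13.96 in in vivo treated and 15.24, 15.53 and 15.08 in in vitro treated libraries. It rose by 1.17 ± 0.28 (limma, adjusted p = 0.0436), and in vivo library 1 lay with the in vitro treated libraries. G6pdx rose by 0.88 ± 0.14 (limma, adjusted p = 0.0152).
Gsta3 fell by 3.38 ± 0.74 (limma, adjusted p = 0.036) and Prdx6 by 1.10 ± 0.21 (limma, adjusted p = 0.025). For Gsta3 the 3 in vitro treated libraries were spread over more than 2 log2 units, all below the primed vehicle libraries. With any 1 of the 6 libraries left out of the 12-library fit, 0 to 1 genes were called higher and 0 to 4 lower: Ftl1 then lay between 1.42 and 1.61, Gpx4 between 1.05 and 1.28, G6pdx between 0.81 and 0.97, Gsta3 between -4.06 and -2.71 and Prdx6 between -1.31 and -0.93.

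A model of only the 6 libraries compared takes its spread from them alone and leaves out the more variable groups. In that fit 4 genes rose and 9 fell, against 13.4% and 16.9% of all genes. Sod1 joined the rises at 0.38 ± 0.10, and 6 of the 7 further falls were in transferases: Gsta2 at -2.84 ± 0.64, Gsta1 at -2.54 ± 0.58, Mgst2 at -1.83 ± 0.52, Gstt1 at -1.63 ± 0.34, Gsta4 at -1.24 ± 0.38 and Gstp1 at -0.63 ± 0.18. The remaining gene, Gsr, fell by 0.67 ± 0.18. Ftl1, Gpx4, G6pdx, Gsta3 and Prdx6 were called in that fit whichever of the 6 libraries was left out.

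Most of the set was not called with in vitro treatment. Nfe2l2 was at -0.29 ± 0.21 (limma, adjusted p = 0.449) and Keap1 at -0.05 ± 0.12 (limma, adjusted p = 0.86). Nqo1 was at 0.12 ± 0.60, Srxn1 at -0.15 ± 0.43, Fth1 at -0.31 ± 0.34, Hmox1 at -0.50 ± 0.83 and Slc7a11 at -1.0 ± 0.89. In vitro library 1 was the lowest of its group for Nqo1, Slc7a11, Gsta3, Gsta4, Gstt1 and Mgst2. It lay below all primed vehicle libraries for 26 of the 39 genes, against 17 in library 2 and 18 in library 3. Over all genes these shares were 38.3% in in vitro library 1, 37.3% in library 2 and 35.9% in library 3.

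**Figure D4:**
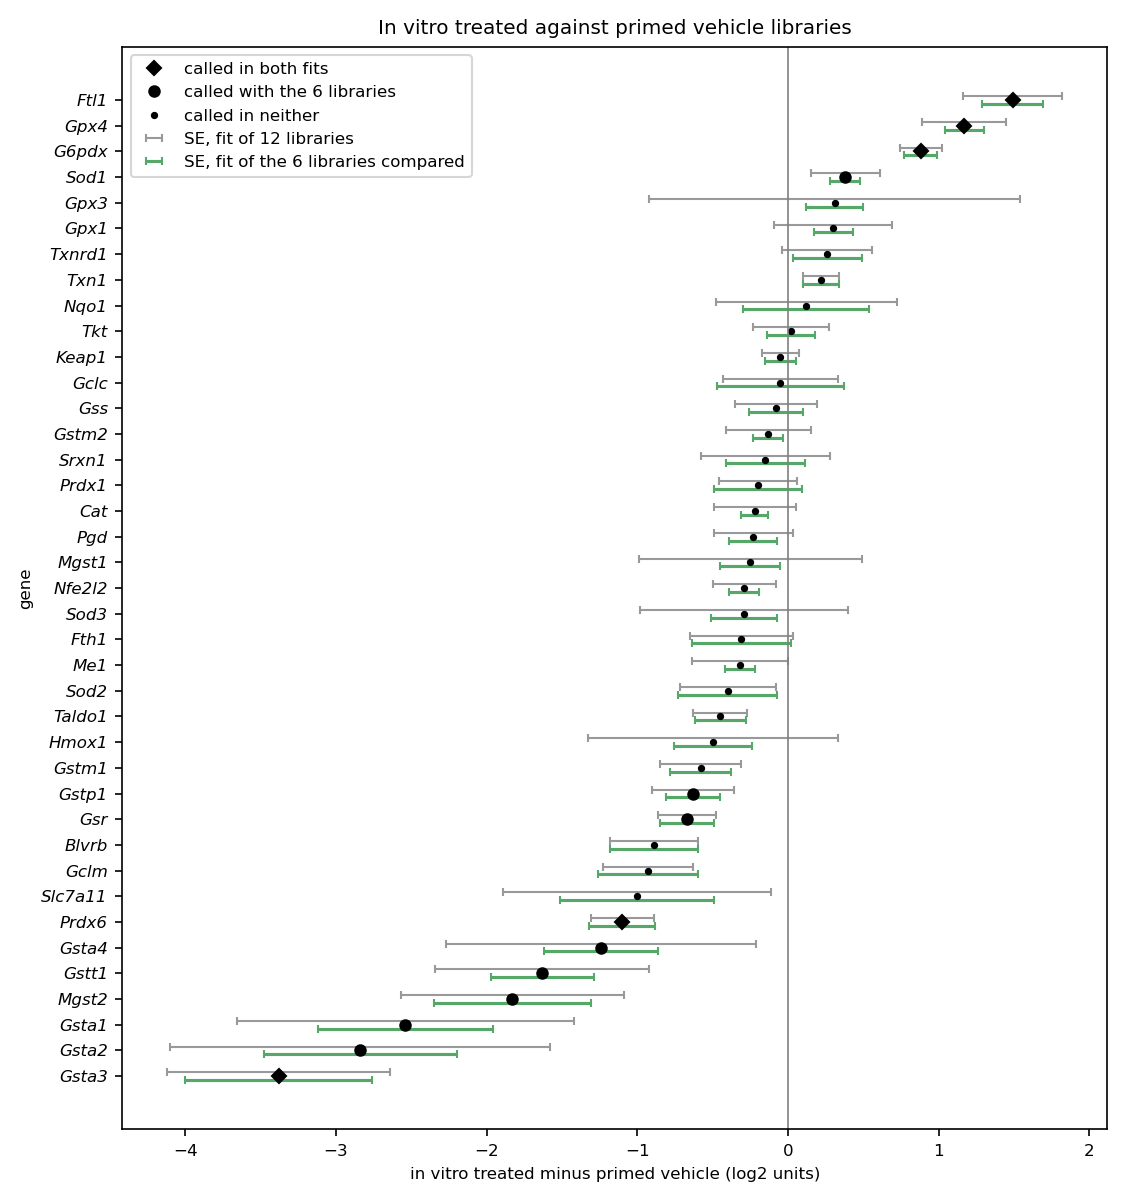
Difference of in vitro treated from primed vehicle libraries (log2 units, horizontal axis) for the 39 genes tested (vertical axis, in order of the difference), with standard errors from the fit of 12 libraries (grey) and of the 6 libraries compared (green), and marker shapes for the fits in which a gene was called. Ftl1, Gpx4 and G6pdx lie to the right of 0 at 1.49, 1.17 and 0.88, Gsta3 and Prdx6 to the left at -3.38 and -1.10, and most of the genes called with the 6 libraries alone are transferases.

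With all 12 libraries, and against 1.76% of all genes higher and 2.76% lower, 3 of 16 further thioredoxin and peroxiredoxin genes rose: Sesn3 by 1.55 ± 0.27, Txnrd3 by 1.16 ± 0.12 and Sesn1 by 1.14 ± 0.25. Gsto2 of the omega-class transferases fell by 2.39 ± 0.41, 1 of 30 further glutathione genes called. Akr1b8, an aldo-keto reductase, fell by 1.19 ± 0.27 and Abcc4, an export pump, by 0.80 ± 0.16, 2 of 23 further NRF2-linked and detoxifying genes. In the further regulators, pentose phosphate and NADPH genes, oxidases and iron handling genes, 0 were called by limma with all 12 libraries. In the fit of the 6 libraries compared, where 13.4% of all genes were higher and 16.9% lower, the further lists gave more calls. There 5 of 30 further glutathione genes were higher and 9 lower, 2 of 23 NRF2-linked and detoxifying genes higher and 7 lower, and 4 of 16 thioredoxin and peroxiredoxin genes higher and 4 lower. Of 9 regulators 2 were higher and 3 lower, of 11 oxidase genes 0 and 4, of 11 iron handling genes 1 and 2, and of 11 pentose phosphate and NADPH genes 0 and 0.

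The 2 routes of treatment were then set against each other. With limma and all 12 libraries, 0 of the 39 genes and 0 of 16459 genes (0% of all) were called between in vitro and in vivo treated libraries, and 30 of the 39 genes and 5341 of all genes had an unadjusted p under 0.05. The median of the set was 0.95, higher in vitro, against 0.03 over all genes, and the in vitro treated libraries lay wholly above the in vivo treated ones for 22 of the 39 genes, against 11.6% of all genes. Without in vivo library 1, 29 genes were higher in vitro, against 27.2% of all genes, led by Sod3 at 3.99 ± 0.34, Gsta4 at 3.95 ± 1.04 and Mgst1 at 3.55 ± 0.53. That comparison sets libraries poor in melanocyte transcripts against libraries rich in them. Within the 7 libraries low in melanocyte transcripts, 0 of the 39 genes and 0% of all genes were called, and the median was 0.53. The largest difference of the set there was that of Slc7a11, 3.74 ± 0.72 (limma, adjusted p = 0.829).

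Set against non-primed vehicle libraries, in vivo treated libraries gave 0 calls among the 39 genes and 0% among all genes with limma, with 10 of the 39 genes and 3366 of all genes at an unadjusted p under 0.05. The median of the set was 0.29. In vivo treated libraries lay wholly above non-primed ones for 9 of the 39 genes and wholly below for 0, against 8.71% and 8.62% of all genes. In the 5 melanocyte-rich libraries alone, 0 of the 39 genes and 0% of all genes were called, and the median was -0.03. With in vivo library 1 as the sole in vivo library, 16 genes were higher and 3 lower (19.8% and 15.6% of all genes), the lower ones being Gsta2 at -5.90, Gsta1 at -5.71 and Gstp1 at -1.20, and that library was the one poor in melanocyte transcripts.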

How the data were processed

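Values are on a log2 scale, the regularized log that the authors deposited for 55413 Ensembl genes, 19136 of them at 0 in all 12 libraries. Per the labels' protocols, a stranded kit was used on polyadenylated RNA. The submitters' processing notes name DESeq2 1.24.0, STAR 2.6.1c, cutadapt 1.18 and Subread 1.6.1 (featureCounts), with GRCm38. Not given in the sources used here were the gene annotation, strand handling, tool settings and blinding of the transformation. Therefore overlapping antisense genes and near-identical copies have uncertain values. Without depth, no count model was used.

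Genes with a mean of at least 3 over the libraries (16459) were fitted in R 4.3.3 by limma 3.58.1 with 1 mean per group and a variance trend (lmFit and eBayes), with two-sided p-values adjusted by Benjamini-Hochberg over all 16459 genes for each of 5 comparisons. The procedure was tested on simulated data. Alternatives were no filter, a minimum mean of 5, median-centring, quantile normalization, only the libraries compared, a block for replicate number, each library left out, and in vivo library 1 alone. The fits of the 7 libraries low in melanocyte transcripts and of the 5 rich in them, and leaving out each library in the 6-library fit, were added after seeing the data.

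The genes, the pathway lists and the marker lists were chosen with earlier results of these data known. Values in 12 libraries are given for called genes with the largest differences in each role, except Gsta4 and Pgd. Nfe2l2 and Keap1 are given whatever their result, and up to 3 called genes with the largest differences for each further list and comparison. G6pdx, Gpx3 and Gsta2 were described in more detail, and Blvra was named, after their values were seen. Coordinates are from GENCODE M21 and promoter sequences from RefSeq, in which 34 of 40 genes matched. Transcript identity comes from local alignment of the longest protein-coding transcripts.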

Additional observations from a re-analysis of the deposited data

How the results depend on the processing

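The values are shrunk log2 levels without depth, from 3 pooled cultures a group, so small changes of weakly expressed members were not detectable. Over the alternatives run, primed libraries had 28 to 31 members higher than non-primed ones. Members lower there were 0, against 3 with quantile normalization (Gsta2 at -3.35, Ftl1 at -0.93 and G6pdx at -0.35) and 0 to 1 with each library left out. Quantile normalization moved the median of all genes in that comparison from 0.05 to -0.24, and Prdx1 (0.64) and Tkt (0.44) were not called. For in vivo treated against primed vehicle the same normalization moved it from -0.05 to 0.19, and median-centring to 0.13.

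For in vivo treated against primed vehicle, members lower were 28, against 17 to 29 with each library left out, 15 in the 7 libraries low in melanocyte transcripts and 0 with in vivo library 1 alone. Members higher were 1, against 2 with median-centred libraries, 3 with quantile normalization, 0 with only the 6 samples compared, 3 in the 7 libraries and 0 to 2 with each library left out. For in vitro treated against primed vehicle, members lower were 2, against 9 with only the 6 samples compared, 9 in the 7 libraries, 0 to 4 with each library left out of the 12-library fit and 4 to 13 with each left out of the 6-library fit. Members higher were 3, against 0 to 1 and 3 to 5 in those leave-one-out fits. Over all genes, 2.76% were lower in vitro with 12 libraries and 16.9% with only the 6 compared, and 1.76% and 13.4% were higher. For in vivo treated against primed vehicle, 21.8% of all genes were lower with 12 libraries, 33.5% without in vivo library 1 and 8.79% without in vivo library 3. Counts of members from different fits are thus read against different shares. Between in vitro and in vivo treated libraries, members higher in vitro were 0, and 0 to 29 with each library left out. Between in vivo treated and non-primed libraries, members higher and lower were 0 each, against 16 and 3 with in vivo library 1 alone and 0 to 3 and 0 to 3 with each library left out. The cause was not tested. Where in vivo library 1 was left as the lone in vivo library, it was assumed to vary like the other groups.

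With the replicate number as a block, members higher in vivo were 0, members higher in vitro 1 and members lower in vitro 0, and in the other member counts the block made no shift over 1.5 times. The labels do not say that a number pairs libraries, and correlations of same-numbered deviations ran from -0.435 to 0.369 over the 5 comparisons, with both signs in each, so the numbers were not taken as pairs. Keap1, in vitro treated against primed vehicle, changed sign to 0.04 with median-centring and ran from -0.11 to 0.01 with each library left out. Nfe2l2, in vivo treated against non-primed, was at -0.09 in the 5 melanocyte-rich libraries and ran from -0.09 to 0.38 with each library left out. None of these was called.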
